A study of Mus musculus with 18 samples.

Results

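The Z-disc and titin-associated genes described here were Ttn, Tcap, Ankrd1, Csrp3, Actn2, Ldb3, Myoz1, Myot, Flnc and Des. They were taken by gene symbol, with no measured value used, and the 10 genes were all found among the 24431 gene rows of the table and among the 16060 genes that could be tested. Poly(A) RNA of a thigh muscle, the rectus femoris, was sequenced from C57BL/6 mice in 3 arms, and each arm held 6 libraries, 3 from females and 3 from males. The old 3TC arm came from mice of 19 months that drank 3TC at 2 mg/mL for 6 weeks, the old untreated arm from mice of 19 months without the drug, and the young untreated arm from mice of 8 months without it. 3TC, also called lamivudine, is a nucleoside analog that blocks reverse transcriptase. The labels number the libraries within arm and sex and do not say that each came from a separate mouse. The p-values therefore set differences against the spread between these libraries, which may not be that between mice.

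The Z-disc is the protein lattice that borders each sarcomere and anchors the thin filaments, which α-actinin crosslinks there, and the ends of titin, a giant elastic protein that reaches from the Z-disc to the M-band. Telethonin, the product of Tcap, joins titin ends at the Z-disc, and the intermediate filament protein desmin ties neighbouring Z-discs to one another. Several Z-disc or titin-associated proteins, among them the muscle LIM protein (Csrp3) and the ankyrin repeat protein CARP (Ankrd1), are known for their part in the response of striated muscle to load and stretch.

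None of the 10 genes passed the threshold of the limma test for age, for 3TC or for sex. Some of them varied widely between libraries of the same arm: Csrp3, Actn2 and Ankrd1 ranged 94.7-fold, 7.14-fold and 16.0-fold over the 18 libraries, whereas Tcap and Myoz1 ranged 1.65-fold and 1.47-fold. Across libraries, Actn2, Myot and Csrp3 were high together.

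Values are the deposited normalised counts, in which the authors had brought each library to a common total of 74.0 M, and the reads behind them came to 64.2 to 85.4 M per library. Errors of means are SDs between libraries, and errors of log2 differences are SEs from limma on log2 of the value plus 1. A gene was called at a Benjamini-Hochberg adjusted p under 0.05 over the 16060 genes. The 10 genes together held between 1.06% (young untreated male 2) and 1.63% (old untreated female 1) of the counts of a library. All 10 markers of skeletal muscle fibres were found, and their summed level was 7263000 to 8937000 in old 3TC, 6280000 to 8300000 in old untreated and 6156000 to 9442000 in young untreated libraries. The 10 liver markers were also found in every arm, at summed levels of 309 to 292100 in old 3TC, 352 to 37170 in old untreated and 1430 to 141500 in young untreated libraries. With liver and brain marker scores as covariates, none of the 10 genes was called for age, 3TC, old 3TC against young or sex. Young untreated females 1 and 3 stood apart, with 5.92% and 12.04% of their counts in rows of transposable elements, against 1.54 to 2.51% in the other 16 libraries. Without them none of the 10 genes was called either. In whole muscle, fewer cells of a type and less RNA per cell cannot be told apart.

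Promoter windows of RefSeq (GRCm38.p6) were found for 7 of the 10 genes, namely Ttn, Actn2, Ldb3, Flnc, Csrp3, Ankrd1 and Des, and not for Tcap, Myot and Myoz1. The 250 bases before the start are shown for Ankrd1, which had the largest differences by age and sex, and for Actn2 and Csrp3, which moved together across libraries. Capitals mark E-boxes (CANNTG), the sites of basic helix-loop-helix factors such as MyoD, and in Ankrd1 also the MCAT motif (CATTCC, which reads GGAATG on the other strand), the site of TEAD factors. The windows are chr19:36119845-36120094, chr13:12340733-12340982 and chr7:48848052-48848301, all on the minus strand.
Ankrd1: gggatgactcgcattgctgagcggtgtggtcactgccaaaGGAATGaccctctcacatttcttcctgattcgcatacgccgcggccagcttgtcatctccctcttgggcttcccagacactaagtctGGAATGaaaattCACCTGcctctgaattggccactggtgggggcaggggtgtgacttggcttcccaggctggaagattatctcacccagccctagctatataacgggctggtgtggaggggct
Actn2: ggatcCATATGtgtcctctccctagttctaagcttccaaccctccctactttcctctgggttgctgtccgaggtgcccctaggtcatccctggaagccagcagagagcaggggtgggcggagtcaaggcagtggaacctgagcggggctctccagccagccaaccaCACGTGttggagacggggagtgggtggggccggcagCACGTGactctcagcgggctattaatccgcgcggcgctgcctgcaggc
Csrp3: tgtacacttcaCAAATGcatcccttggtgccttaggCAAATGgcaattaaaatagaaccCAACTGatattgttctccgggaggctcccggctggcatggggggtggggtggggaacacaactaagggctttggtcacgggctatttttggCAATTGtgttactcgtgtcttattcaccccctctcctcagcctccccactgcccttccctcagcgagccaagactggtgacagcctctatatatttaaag
Ankrd1 held the MCAT motif at positions −210 and −123 and an E-box at −111, counted from the start. Actn2 held 3 E-boxes, of which those at −84 and −48 both read CACGTG, and Csrp3 held E-boxes at −239, −214, −191 and −100 and another at 21 bases past the start. Both strands were searched in windows of 300 bases that run to 50 bases past the start, and no matches overlapped one another. An E-box occurred in 72.3% of all 32851 such windows and the MCAT motif in 14.7%. These are shares of windows with a match, and shares with several matches are not given here. Elsewhere among the 7 genes, the MCAT motif occurred once in Ttn and once in Flnc, the MEF2 site once in Ttn, the CArG box once in Ldb3, and E-boxes once in Ttn and at 2 places in Des. The MEF2 site occurred in 1.86%, the CArG box in 1.63% and TATAAA in 13.6% of all windows, and TATAAA was in none of the 7.

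Levels are compared between genes as normalised counts per kb of exon, from the GENCODE annotation of GRCm38 (mm10). Tcap was highest, at 127535 ± 17337 per kb (SD, n = 18), and its exons span 948 bases (chromosome 11, 98383811 to 98384953). Des and Myoz1 followed, at 76730 ± 13852 and 67094 ± 7752 per kb. Des was above Myoz1 in 11 of 18 libraries, so these neighbours in the order did not differ beyond their spread. Myot stood at 33655 ± 6363 and Ldb3 at 19870 ± 2490 per kb.

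The lower part of the order began with Actn2, at 6375 ± 4111 per kb, followed by Flnc, at 3161 ± 1051 per kb. Actn2 was above Flnc in 12 of 18 libraries. Ttn stood at 1583 ± 412 per kb over 116825 bases of exon (chromosome 2, 76703980 to 76982547). Ankrd1 and Csrp3 were lowest, at 481 ± 394 and 382 ± 446 per kb, and Ankrd1 was above Csrp3 in 12 of 18 libraries. All other neighbours kept their order in 18 of 18 libraries, and the ranges of Myoz1 and Myot, and those of Ldb3 and Actn2, did not overlap. The annotation puts Gm13938 over exons of Ttn and Gm15179 over exons of Des. The strand setting of the counting is not given in the sources used here, so reads of these overlaps cannot be told apart; Gm15179 held 929 to 1718 normalised counts, against 216491 for the lowest library of Des.

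**Figure D1:**
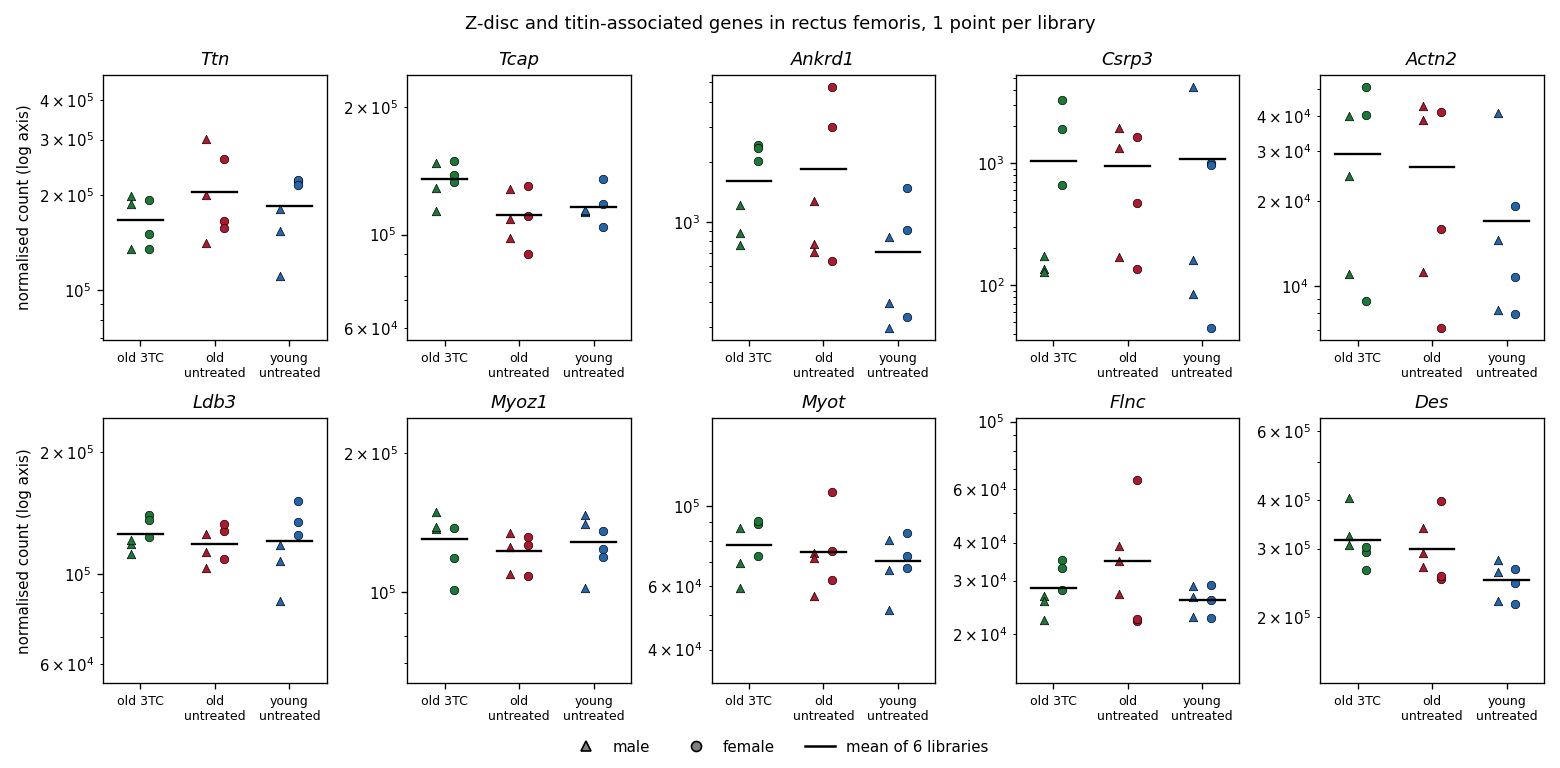
Normalised counts (log axis, a separate range for each gene) of the 10 genes in the 6 old 3TC, 6 old untreated and 6 young untreated libraries. Each point is a library (triangles male, circles female) and each line the mean of an arm. The arms overlap for every gene, and Csrp3, Ankrd1 and Actn2 spread widely within each arm.

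For 3TC in old muscle, Tcap showed the highest log2 difference of the 10 genes, and no gene was called. Tcap had a lowest, median and highest normalised count of 113478, 135845 and 149115 in old 3TC libraries, against 90130, 109702 and 130614 in old untreated libraries. It averaged 135174 ± 13273 in old 3TC and 111112 ± 16000 in old untreated libraries (SD, n = 6 each). The arms overlapped, since the lowest old 3TC library lay below the highest old untreated libraries. The difference was 1.22-fold (log2 0.29 ± 0.11, 95% interval 0.06 to 0.52, unadjusted p = 0.0153, adjusted p = 0.481, limma).

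Titin itself had 134539, 168656 and 198788 normalised counts (lowest, median, highest) in old 3TC libraries and 140778, 182174 and 301275 in old untreated libraries. Old untreated male 1, female 1 and male 3, at 301275, 260862 and 199453, were above every old 3TC library, and the rest of the old untreated arm lay within the old 3TC range. The difference was −0.26 ± 0.21 (adjusted p = 0.598, limma). Flnc, the gene of filamin C, which crosslinks actin at the Z-disc and the sarcolemma, averaged 28407 ± 4795 in old 3TC and 34830 ± 15823 in old untreated libraries, a log2 difference of −0.21 ± 0.20 (adjusted p = 0.664, limma). A single library, old untreated female 1, held 64089 counts of Flnc, against 38815 for the next highest, and without it the log2 difference was −0.0039.

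The other scaffold genes had log2 differences nearer to 0. Ldb3, whose product Cypher (ZASP) binds α-actinin, averaged 125128 ± 10668 in old 3TC and 118580 ± 11859 in old untreated libraries. Myoz1, whose product calsarcin-2 binds calcineurin and α-actinin, averaged 130249 ± 17279 in old 3TC and 122547 ± 11191 in old untreated libraries. Myot, the gene of the actin-binding protein myotilin, averaged 77963 ± 12866 in old 3TC and 74627 ± 18401 in old untreated libraries. Their log2 differences were 0.08 each (SE 0.10, 0.11 and 0.14), and the 95% interval reached from −0.14 to 0.30 for Ldb3. Des averaged 315788 ± 47585 in old 3TC and 299884 ± 57264 in old untreated libraries, a log2 difference of 0.08 ± 0.14. For Actn2, Ankrd1 and Csrp3 the log2 differences were 0.19 ± 0.54, 0.10 ± 0.41 and −0.31 ± 1.08, each smaller than its error.

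Across the table, 0 of 16060 genes (0%) were called for 3TC, by limma, edgeR and DESeq2 alike, and 10.2% had an unadjusted p under 0.05. Among the 10 genes, Tcap alone had one. Their median log2 difference was 0.08, against −0.15 over all genes tested, and 7 of 10 lay above 0, against 20.0% of all genes. That median of all genes moved to −0.01 when the libraries were scaled by the median of ratios, and under this scaling Tcap differed by 0.43 ± 0.13 (adjusted p = 0.803) and Ttn by −0.12 ± 0.19. The shares above 0 are not given under this scaling. With the deposited scaling, the marker lists of skeletal muscle, fast and slow fibres also lay above the median of all genes, with medians of 0.17, 0.13 and 0.37. The arms did not overlap for 0.33% of all genes and for none of these 10.

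For age in untreated muscle, Ankrd1 showed the highest log2 difference of the 10 genes. It had 4734, 636 and 2973 normalised counts in the old untreated females and 1270, 706 and 775 in the old untreated males, against 1474, 911 and 336 in the young untreated females and 296, 840 and 394 in the young untreated males. The pair of old untreated females with 4734 and 2973 counts was above every young library, while the other 4 old untreated libraries lay within the young range. The difference was 2.28-fold (log2 1.19 ± 0.41, unadjusted p = 0.0102, adjusted p = 0.120, limma), and it did not pass the threshold. Without young untreated females 1 and 3 it was 1.44 ± 0.48 (adjusted p = 0.307, limma), and with liver and brain marker scores as covariates 1.10 ± 0.48 (adjusted p = 0.320).

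Des, at 299884 ± 57264 in old untreated and 248461 ± 26047 in young untreated libraries, differed by 0.26 ± 0.14 (adjusted p = 0.262, limma). Flnc averaged 34830 ± 15823 in old untreated and 25916 ± 2775 in young untreated libraries, with a log2 difference of 0.33 ± 0.20 (adjusted p = 0.334). Neither gene separated the arms, and the spread of both was wider in the old untreated libraries, where female 1 was highest for each. Actn2 and Csrp3 had log2 differences of 0.57 ± 0.54 and 0.69 ± 1.08, with 95% intervals of −0.58 to 1.72 and −1.62 to 3.01. Ttn averaged 204066 ± 63936 in old untreated and 184357 ± 45301 in young untreated libraries, and Tcap 111112 ± 16000 in old untreated and 116424 ± 10137 in young untreated libraries. Their log2 differences were 0.13 ± 0.21 and −0.08 ± 0.11, and those of Myot, Ldb3 and Myoz1 were 0.07 ± 0.14, −0.00 ± 0.10 and −0.06 ± 0.11.

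Of all genes tested, 0.367% were called for age and 22% had an unadjusted p under 0.05, against 0 and 1 (Ankrd1) of the 10 genes. Neither edgeR (0.0249% of all genes called) nor DESeq2 (1.48%) called any of the 10 for age. The median log2 difference of the 10 was 0.20, against 0.16 for all genes, and 7 of 10 lay above 0, as did 79.1% of all genes. With median-of-ratios scaling the median of all genes was −0.00, Ankrd1 differed by 1.02 ± 0.43 (adjusted p = 0.325), and Ttn and Myot lay below 0, at −0.03 and −0.10. The arms did not overlap for 1.04% of all genes and for none of the 10.

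Old 3TC libraries were also set against young untreated ones, a comparison that shares its libraries with both others. Ankrd1 averaged 1609 ± 741 in old 3TC and 708 ± 459 in young untreated libraries (log2 1.29 ± 0.41, unadjusted p = 0.00601, adjusted p = 0.342, limma). Des averaged 315788 ± 47585 in old 3TC and 248461 ± 26047 in young untreated libraries (log2 0.34 ± 0.14, unadjusted p = 0.0215, adjusted p = 0.451). These were the genes with an unadjusted p under 0.05, 2 of 10 against 9.32% of all genes, while 0.0125% of all genes and none of the 10 were called by limma, and none of the 10 by edgeR or DESeq2 (0.0125% and 0.747% of all genes). The median log2 difference of the 10 was 0.18 and that of all genes 0.03, and the arms did not overlap for 0.511% of all genes and for none of the 10.

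**Figure D2:**
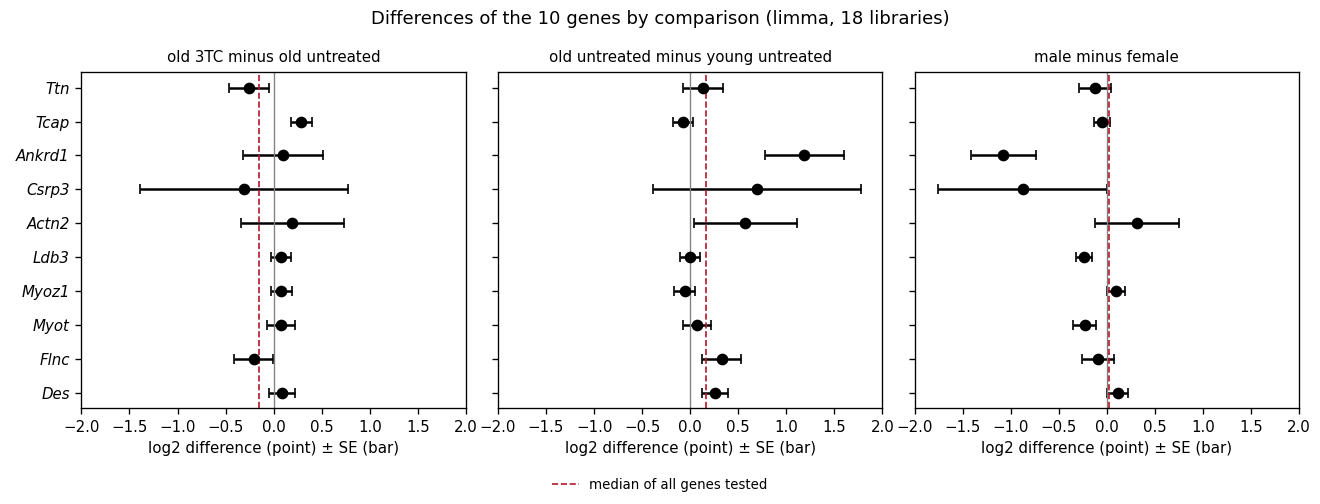
Log2 differences of the 10 genes (points) with their standard errors (bars) for old 3TC minus old untreated, old untreated minus young untreated and male minus female. The dashed line is the median of all 16060 genes tested. No difference passed the threshold, and the bars of Csrp3, Actn2 and Ankrd1 are the longest in each panel.

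Between the sexes, Ankrd1 was again the gene with the largest difference. Its normalised count was 296, 775 and 1270 in males (lowest, median, highest) and 336, 2026 and 4734 in females. It averaged 794 ± 324 in the 9 males and 1983 ± 1360 in the 9 females. The ranges overlapped, and 6 of the 9 females lay above the highest male. The log2 difference, male minus female, was −1.08 ± 0.34 (unadjusted p = 0.00518, adjusted p = 0.117, limma), which missed the threshold. It passed with DESeq2 (−1.26, adjusted p = 0.01285) and with array weights (−1.09, adjusted p = 0.0396), and when old untreated female 2 or young untreated female 8 was left out (−1.31 and −1.27, adjusted p = 0.0238 and 0.0398). With edgeR it did not (adjusted p = 0.0579), nor without young untreated females 1 and 3 (−0.91 ± 0.38, adjusted p = 0.370, limma) or with liver and brain marker scores as covariates (−1.10 ± 0.40, adjusted p = 0.223).

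Ldb3 averaged 111645 ± 11810 in males and 130962 ± 11903 in females, a log2 difference of −0.23 ± 0.08 (unadjusted p = 0.0128, adjusted p = 0.178, limma). The lowest value was that of young untreated male 2, at 85853, and the sexes overlapped. DESeq2 called it as well (−0.27, adjusted p = 0.0385). Myot, at 68408 ± 11480 in males and 80278 ± 14451 in females, differed by −0.23 ± 0.12, and Csrp3 by −0.88 ± 0.88. The others lay between −0.12 (Ttn) and 0.32 (Actn2, SE 0.44).

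Over all genes, 2.33% were called for sex and 15.1% had an unadjusted p under 0.05, against 0 and 2 of the 10. DESeq2 called 6% of all genes and 2 of the 10, edgeR 2.72% and 0 of the 10, and limma with array weights 4.5% and 1 of the 10. The median log2 difference was −0.11 for the 10 genes and 0.02 for all genes, and 3 of 10 lay above 0, against 55.5% of all genes. The sexes did not overlap for 0.342% of all genes and for none of the 10.

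Whether the age and 3TC differences themselves differed between the sexes was tested in a model of the 6 combinations of arm and sex. No gene was called by limma or edgeR for either (0% each by limma), 4.88% and 2.97% had an unadjusted p under 0.05 in limma, and none of the 10 genes did. DESeq2 called 143 and 59 genes (0.89% and 0.367%), none of them among the 10. Csrp3 came closest, for 3TC. In old 3TC libraries it had 1911, 654 and 3280 normalised counts in females and 136, 129 and 172 in males. The old untreated libraries had 1620, 135 and 468 in females and 169, 1943 and 1320 in males. All 3 old 3TC males were low, as was old untreated male 1. The difference between the sexes in the 3TC difference was −4.16 ± 1.99 on the log2 scale (unadjusted p = 0.0535, adjusted p = 1.00, limma).

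Within an arm and sex, the log2 SD of Csrp3 was 1.99, that of Actn2 1.11 and that of Ankrd1 0.859. The median was 0.295 over all genes tested and 0.196 over the 6291 genes with a mean of at least 1000. Flnc (0.400), Ttn (0.356), Myot (0.276) and Des (0.217) were above that second median, and Myoz1 (0.179), Tcap (0.176) and Ldb3 (0.148) below it. The genes with the widest spread thus were those of the muscle LIM protein, of α-actinin-2, an α-actinin of heart and of skeletal fibres, and of CARP. Actn3, another α-actinin gene, averaged 635646 ± 121296 normalised counts in old 3TC, 603937 ± 131638 in old untreated and 588746 ± 190338 in young untreated libraries. Actn2 averaged 29291 ± 17183, 26306 ± 16619 and 16979 ± 12540 in these arms, in counts not divided by length.

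Actn2 had high levels in some libraries of each arm. Old 3TC female 4, female 8 and male 1 had 40474, 50772 and 40067 normalised counts, and female 5, male 2 and male 5 had 8825, 11060 and 24550. Old untreated female 1, male 3 and male 6 had 41239, 38876 and 43493, and female 2, female 3 and male 1 had 7107, 15914 and 11207. Among young untreated libraries male 2 had 41047, and the rest had 7972 to 19255. The high libraries thus came from every arm and from both sexes.

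Csrp3 followed a like order. It was highest in young untreated male 2, at 4205, then in old 3TC female 8, at 3280, old untreated male 3, at 1943, and old 3TC female 4, at 1911. Its lowest values were 44 in young untreated female 8 and 84 in young untreated male 8. A library high for Actn2 was not always high for Csrp3, since old 3TC male 1 had 136 counts. Young untreated male 2 also had the lowest Ttn, at 110683, and the lowest Ldb3 of all libraries.

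After the mean of each arm and sex was subtracted, the 45 pairs among the 10 genes were compared over the 18 libraries by 2 two-sided permutation tests, each adjusted over the 45 pairs. In the first, 100000 permutations drew freely over the libraries, and 10 pairs passed an adjusted p of 0.05. Deviations within an arm and sex sum to 0, so shuffling them freely tends to give p-values that are too small. The second, added after the values had been seen, was the exact test over all 46656 arrangements within each arm and sex, and 3 pairs passed. They were the pairs among Actn2, Myot and Csrp3, which also passed the first test. How many pairs of all genes tested would pass either test was not computed, so these counts have no background beside them. Actn2 and Myot had the highest r, 0.89 (Spearman's rho 0.86, adjusted p = 0.00627 for r and 0.0074 for rho, exact within arm and sex), and r was 0.90 without the 2 libraries farthest from the median of Actn2. With Csrp3, r was 0.80 for Actn2 (rho 0.81, adjusted p = 0.00627, exact) and 0.77 for Myot (rho 0.80, adjusted p = 0.00772, exact). Without the 2 farthest libraries these were 0.79 and 0.74.

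The free permutations gave p = 1e-05 for Actn2 with Myot, the smallest they can give, and adjusted p = 0.00045, 0.00112 and 0.00281 for the 3 pairs. Without young untreated females 1 and 3 the r of these pairs was 0.93, 0.86 and 0.81 (adjusted p = 0.0116, 0.013 and 0.013, exact within arm and sex). All 3 pairs also passed the exact test when any library but old untreated male 1 was left out, and without it Myot with Csrp3 did not (adjusted p = 0.0801). Without old untreated female 1, 6 of the 45 pairs passed it.

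The other 7 pairs passed the free permutations alone, and their values are given as a description. Myoz1 had r = −0.76 with Csrp3 (rho −0.75), −0.68 with Actn2 (rho −0.68) and −0.59 with Myot (rho −0.57). Ldb3 had r = 0.75 with Myoz1 (rho 0.68) and −0.60 with Actn2 (rho −0.67), Csrp3 had 0.64 with Ankrd1 (rho 0.57), and Ttn had 0.60 with Flnc (rho 0.53). Their adjusted p was 0.00281 to 0.0472 by free permutation and 0.0714 to 0.179 by the exact test within arm and sex. By rho, Myoz1 with Csrp3 passed the exact test (adjusted p = 0.048). Without the 2 farthest libraries the first 5 values were −0.73, −0.58, −0.56, 0.58 and −0.55, and the last pair of values 0.49 and 0.58. Without young untreated females 1 and 3, Ldb3 and Myoz1 passed the exact test too (r = 0.92, adjusted p = 0.013).

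The median r of the 45 pairs was 0.19, with a range of −0.76 to 0.89, and 26 lay above 0. Between 2000 genes drawn from all genes tested the median r was 0.12, with a range of −0.98 to 1.00. Of these 1999000 pairs, 1251222 lay above 0. All libraries share a scaling to one total, which bears on every pair. By free permutation, 4 of the 45 pairs passed without young untreated male 2, the library with the highest Csrp3, 6 without old 3TC female 5, and 4 when no arm and sex means were subtracted.

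**Figure D3:**
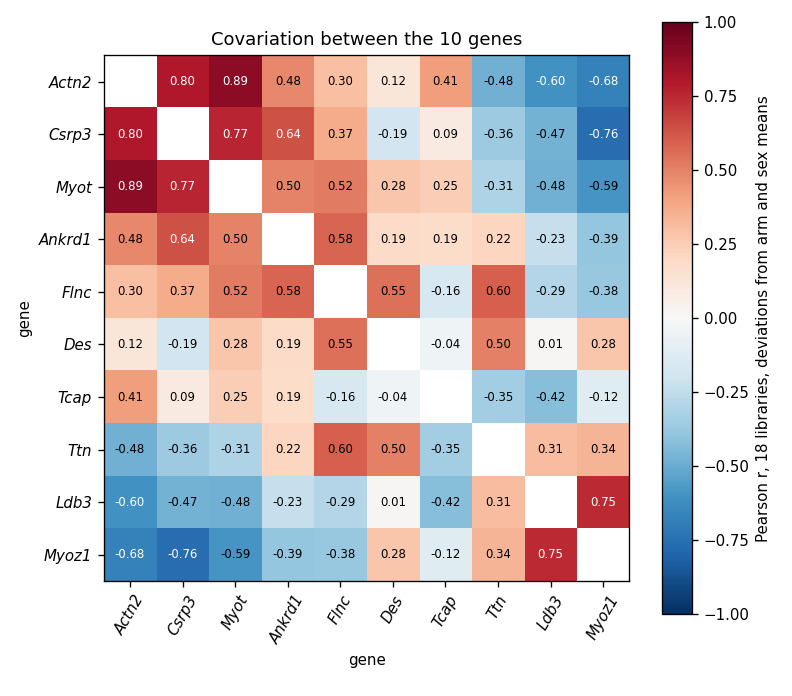
Pearson's r between the 10 genes over the 18 libraries, after subtraction of the mean of each arm and sex, as colour and as a number in each cell. Actn2, Csrp3 and Myot form a block of positive values of 0.77 to 0.89, and Myoz1 and Ldb3 share 0.75 and have negative values with that block.

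Mouse fast fibres are distinguished by their myosin heavy chains, Myh2 in IIa, Myh1 in IIx and Myh4 in IIb fibres, and slow fibres by Myh7. The relations of the 10 genes with these 4 genes were examined after the values had been seen, over the same deviations and libraries and with both permutation tests, adjusted over the 40. By free permutation 19 of 40 passed and by the exact test within arm and sex 12, of which 11 passed both. The same share was not computed for all genes tested. Csrp3 had r = 0.85 with Myh2 (rho 0.85, adjusted p = 0.00514, exact within arm and sex), and Actn2 had 0.90 with Myh1 (rho 0.85, adjusted p = 0.00557) and 0.89 with Myh2 (rho 0.83, adjusted p = 0.00926). Myot had r = 0.82 with Myh1 (rho 0.77, adjusted p = 0.0107, exact), and Ttn had 0.82 with Myh4 (rho 0.88, adjusted p = 0.00926). Myoz1 ran the other way, at r = −0.80 with Myh2 (rho −0.79, adjusted p = 0.0288, exact). Without the 2 libraries farthest from the median on the x axis, these 6 values were 0.86, 0.87, 0.84, 0.74, 0.75 and −0.71.

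The rest of the 11 were Csrp3 with Myh1 and Myh7, Actn2 with Myh7, Myot with Myh2, all above 0, and Myoz1 with Myh1, below 0 (r of 0.75, 0.64, 0.68, 0.71 and −0.76, adjusted p = 0.00857 to 0.0449, exact). Of Actn2 with Myh7 and Myoz1 with Myh1, rho missed the threshold within arm and sex (adjusted p = 0.0532 for both). No relation of Ldb3 passed the exact test. Its r was −0.67 with Myh2 and 0.69 with Myh4 (adjusted p = 0.0609 and 0.0615, exact), and that of Myoz1 with Myh4 was 0.75 and that of Actn2 with Myh4 −0.69 (adjusted p = 0.0609 and 0.0535, exact). Without young untreated females 1 and 3, 18 relations passed by free permutation and 10 by the exact test. The myosin genes are similar in sequence, and how the counting divided reads between them is not given in the sources used here.

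Myh2 was 165808 normalised counts in old 3TC female 4 and 150231 in old 3TC female 8. It was 142637 in old untreated male 3 and 139029 in young untreated male 2, against 12214 in young untreated male 8. The libraries named here with high Myh2 were all high for both Actn2 and Csrp3. Old 3TC male 1, high for Actn2 (40067) but not for Csrp3 (136), had 23717 counts of Myh2. Neither Myh2 nor Myh1 nor Myh4 was called for 3TC, age or sex, and their log2 differences for 3TC were 0.03 ± 0.68, −0.07 ± 0.40 and −0.01 ± 0.27. Myh7 differed by 1.20 ± 1.17 for 3TC and by −2.06 ± 0.95 for sex, and was not called either (adjusted p = 0.660 and 0.315, limma). All 10 slow fibre markers were found, none at 0 in every library, and their summed level was 5153 to 81310 (median 7916) in old 3TC, 6452 to 9846 (median 8622) in old untreated and 5204 to 12540 (median 6547) in young untreated libraries. Old 3TC female 8 had the highest sum and 11633 counts of Myh7, against 20 in old 3TC male 1. With the mean log2 level of these markers as a covariate, added after the values had been seen, none of the 10 genes was called for age, 3TC, old 3TC against young or sex. The SE of the age difference was then 0.671 for Csrp3, 0.419 for Actn2 and 0.083 for Myoz1, against 1.08, 0.54 and 0.11 without it. It moved less for Tcap, Ttn and Ldb3, at 0.1055, 0.2011 and 0.0971 with the covariate, against 0.108, 0.207 and 0.103 without it. Whether slow fibre content accounts for the spread was not tested.

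**Figure D4:**
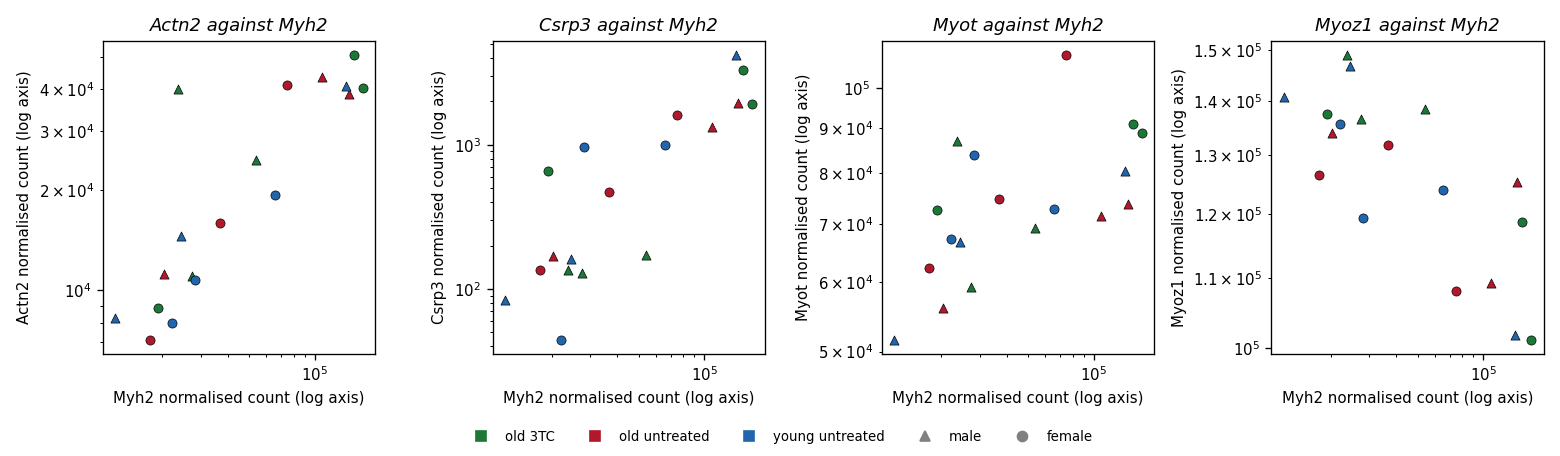
Normalised counts of Actn2, Csrp3, Myot and Myoz1 against those of Myh2 in the 18 libraries (both axes logarithmic, colours for arms, triangles male, circles female). Actn2, Csrp3 and Myot are higher and Myoz1 lower at high Myh2, with libraries of every arm at both ends.

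The genes most like 4 of the 10 were taken by Pearson's r over the 18 libraries on log2 values, as a description with no test. For Csrp3 they were Ankrd2 (r = 0.92, rho 0.93), another muscle ankyrin repeat gene, Myoz2 (0.89, rho 0.88), the calsarcin gene of slow fibres and heart, and Fhl1 (0.88, rho 0.92), a LIM-domain gene. For Ttn they were Neb (0.94, rho 0.91), the gene of the giant thin filament protein nebulin, Ubr3 (0.93, rho 0.89), a ubiquitin ligase gene, and 4932438A13Rik (0.93, rho 0.91). Tcap was most like 3 genes of mitochondrial proteins, Cox6a2 (0.74, rho 0.78), Mipep (0.72, rho 0.68) and Pmpcb (0.71, rho 0.69), and Ankrd1 was most like 2310030G06Rik (0.85, rho 0.82), A430046D13Rik (0.78, rho 0.75) and Lin37 (0.76, rho 0.63). The highest r of Tcap was thus lower than that of Ttn, Csrp3 or Ankrd1.

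Further genes of the Z-disc and of titin's partners were described in 4 lists of 52 genes in all, each of them tested. For 3TC 0 of 52 and for age 0 of 52 were called by limma, with 1 and 4 at an unadjusted p under 0.05, and for sex 2 of 52 were called, with 6 at an unadjusted p under 0.05. Over all genes the shares called were 0%, 0.367% and 2.33%, and those at an unadjusted p under 0.05 were 10.2%, 22% and 15.1%. The median log2 differences of the 52 were −0.02 for 3TC, 0.12 for age and −0.08 for sex, beside −0.15, 0.16 and 0.02 for all genes.

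On a list of 9 genes of the stretch response, which holds muscle ankyrin repeat and LIM genes and others such as Rcan1, the 2 calls for sex were higher in males. Fhl3, a LIM-domain gene, averaged 16860 ± 2608 in males and 11581 ± 989 in females (n = 9 each; log2 0.53 ± 0.08, adjusted p = 0.000556, limma). Rcan1, the gene of an inhibitor of calcineurin, averaged 4958 ± 2359 in males and 2850 ± 475 in females (log2 0.71 ± 0.18, adjusted p = 0.0428, limma). This call was lost with edgeR (adjusted p = 0.0732), with median-of-ratios scaling (0.0606) and when any of 13 of the 18 libraries was left out (adjusted p up to 0.0894), the exceptions being old 3TC females 5 and 8, old 3TC males 1 and 2 and young untreated male 2. The call was also lost when both young untreated females 1 and 3 were left out (0.60 ± 0.20, adjusted p = 0.210), while Fhl3 passed (0.49 ± 0.08, adjusted p = 0.0063). The list's median log2 difference for sex was 0.11, and 6 of 9 lay above 0, against 55.5% of all genes. For age, Fhl2 and Fhl3 had log2 differences of 1.32 ± 0.52 and −0.20 ± 0.09 (adjusted p = 0.156 and 0.211), and Fhl2 was low, at 55.2 ± 9.18 in old untreated and 30.7 ± 30.6 in young untreated libraries. For 3TC, Csrp1 and Fhl3 had the smallest p, at −0.24 ± 0.18 and 0.10 ± 0.09.

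Of 17 Z-disc scaffold and actin-binding genes none was called. For 3TC the smallest p belonged to Palld (−0.16 ± 0.13), the palladin gene, and Synpo2l (−0.18 ± 0.15). For age it belonged to the PDZ-LIM genes Pdlim5 (0.25 ± 0.14) and Pdlim7 (−0.22 ± 0.13). For sex, Xirp2, whose product binds actin, averaged 184318 ± 28741 in males and 222504 ± 19754 in females (log2 −0.28 ± 0.10, adjusted p = 0.173, limma), and Pdlim3 differed by −0.29 ± 0.16. On this list 2 of 17 lay above 0 for sex, against 55.5% of all genes, with a median of −0.11.

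Of 15 titin partners along the filament and at the M-band none was called either. For age, Myom3, a myomesin gene, and Igfn1 had log2 differences of 1.32 ± 0.66 and 0.69 ± 0.41. For sex, Obsl1 and Igfn1 had −0.27 ± 0.13 and −0.66 ± 0.33. The list's medians were 0.01 for 3TC, 0.13 for age and −0.13 for sex.

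Of 11 intermediate filament and Z-disc chaperone genes none was called. Sync, the gene of syncoilin, a partner of desmin, came closest for age, at 3519 ± 560 in old untreated and 2764 ± 317 in young untreated libraries (log2 0.34 ± 0.10, adjusted p = 0.0872, limma). Vim, the vimentin gene, differed by 0.51 ± 0.22 (adjusted p = 0.200). The 7 macrophage markers, from cells that express vimentin, had summed levels of 7087 to 21480 in old untreated and 2046 to 12740 in young untreated libraries, and their part in the Vim difference was not tested. For 3TC, Plec, the plectin gene, and Sync had −0.24 ± 0.12 and −0.19 ± 0.10. For sex, Nes, the nestin gene, and Sync had 0.40 ± 0.14 (adjusted p = 0.177) and 0.16 ± 0.08.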

How the data were processed

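The deposited table holds one normalised count per gene, or transposable-element subfamily, and library. This signal had been scaled by the authors to a common total of 74.0 M per library. Its 25604 rows were 24431 genes, 1146 subfamilies and 27 rows with dates in place of symbols, and this last kind, with 0.0628 to 0.0831% of a library's counts, was not used. All values were whole multiples of a step (100% within 0.001 reads), which gave back 64.2 to 85.4 M reads per library. STAR and mm10 are named, per the submitters' processing notes; the counting program and annotation are not given in the sources used here. Poly(A) libraries were read from both ends, per the labels' protocols.

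The fit was limma 3.58.1 (trend, R 4.3.3) for genes whose mean reached 10, on log2 of the deposited value plus 1, with arm and sex as terms and all 18 libraries. Tests of the recovered reads (edgeR 4.0.16, DESeq2 1.42.0), other scalings, pseudocounts, filters, covariates and leaving out each library were alternatives, and a slow fibre score as a covariate and a permutation of libraries within arm and sex were added after the values were seen. Named were the 10 genes and, per list and comparison, the genes past the threshold or else the 2 with the smallest p, of which 1 is not reported here. The genes, lists and tests were chosen with earlier results of these data known. Simulated data with planted changes were used to check the fit. The lowest value of any of the 10 genes was 44 normalised counts.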

Additional observations from a re-analysis of the deposited data

How the results depend on the processing

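Over 1330 recomputed differences of the 10 genes by age, 3TC, old 3TC against young and sex, 1270 kept their direction and their side of the threshold, 55 changed sign and 5 came to pass it. Every change of sign was of a difference that did not pass either way, and the 5 were Ankrd1 and Ldb3 for sex. The cause of these changes was not tested.

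The number of all genes called for age was 24 with median-of-ratios scaling (16 of them higher in old), 991 with array weights, 4 with edgeR, 238 with DESeq2, 14 without the sex term, 4 with liver and brain scores as covariates and 2 without young untreated females 1 and 3. It ranged from 2 to 608 over the leave-outs of one library. For old 3TC against young it was 6 with quantile normalisation, 8 with array weights, 120 with DESeq2, 4 with only the arms compared, 9 with the slow fibre score, and 2 to 16 over the leave-outs. For sex it was 722, 963, 207 and 136 with array weights, DESeq2, the liver and brain scores and without young untreated females 1 and 3, and 243 to 507 over the leave-outs. Of the 10 genes, 1 was called for sex with array weights and 2 with DESeq2, and 0 or 1 over the leave-outs. DESeq2 called 143 and 59 genes for the sex difference in the age and the 3TC change, and the liver and brain scores gave 1 for the age change.

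With a replicate block 0 genes were called for age and for old 3TC against young, and Myot for age, Csrp3 and Ankrd1 for 3TC and Flnc for old 3TC against young stood at −0.010, 0.21, −0.44 and −0.044. Whether shared numbers pair the libraries was not settled. Same-numbered libraries had correlations of 0.11, −0.00022 and 0.17 for age and −0.0297 for 3TC. For old 3TC against young they had 0.19, −0.0137 and −0.0617. These values cannot decide it, since libraries with different numbers were not correlated for comparison. For young untreated female 1, numbered by its title, the table's column bears the number 2. The sex difference could not be estimated under the block, and was not run without the sex term or with only the arms compared.

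Differences that changed sign were, for age, Ttn (−0.033 with median-of-ratios scaling, −0.0037 with edgeR, −0.010 with DESeq2, −0.013 to 0.22 over the leave-outs), Myot (−0.097 with median-of-ratios scaling, −0.014 with quantile normalisation, −0.098 with edgeR, −0.11 with DESeq2, −0.032 to 0.14 over the leave-outs), Ldb3 (0.0036 with array weights, 0.055 with the liver and brain scores, 0.087 without young untreated females 1 and 3, 0.011 with the slow fibre score, −0.078 to 0.047 over the leave-outs) and Csrp3 (−0.45 with edgeR, −0.46 with DESeq2, −0.046 to 1.54 over the leave-outs). For 3TC they were Actn2 (−0.066 with array weights, −0.0049 with the slow fibre score, −0.11 to 0.47), Csrp3 (0.16 with edgeR and DESeq2, −0.86 to 0.15) and Ankrd1 (−0.25 to 0.37). For old 3TC against young they were Ttn (0.027 without young untreated females 1 and 3), Ldb3 (−0.0053 with quantile normalisation), Myoz1 (−0.0023 with median-of-ratios scaling, −0.097 with quantile normalisation, −0.055 to 0.089) and Csrp3 (−0.29 with edgeR, −0.30 with DESeq2, −0.11 with the liver and brain scores, −0.57 with the slow fibre score, −0.35 to 1.24). For sex they were Myoz1 (−0.0016 with the slow fibre score), Flnc (0.019 with array weights, −0.18 to 0.039) and Csrp3 (0.31 with the slow fibre score).

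Of the pairs among the 10 genes, 4 passed by free permutation with no arm and sex means subtracted and 4 to 14 over the leave-outs, and 3 passed by permutation within arm and sex, with 2 to 6 over the leave-outs, and the median r ranged from −0.033 to 0.24. The relations with myosin genes that passed by free permutation numbered 13 to 24 over the leave-outs, and 12 passed by permutation within arm and sex. The spread of Csrp3 limits its comparisons by age, 3TC, old 3TC against young and sex. Its 95% intervals for age, 3TC and old 3TC against young cover changes of more than 1 log2 unit either way. For sex the interval was −2.77 to 1.02.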
